A study of Homo sapiens with 6 samples.

Results

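The clustered histone genes encode the histones made for new chromatin while DNA is copied. They were taken as every row of the expression table whose symbol starts with HIST, a cluster number from 1 to 4 and a histone class, in the older nomenclature. This gave 69 of the 28503 rows, with 6 H1, 16 H2A, 20 H2B, 13 H3 and 14 H4 members. By the reference annotation, 55 lie in the large HIST1 cluster on chromosome 6, 10 in HIST2 and 3 in HIST3 on chromosome 1, and 1, HIST4H4, on chromosome 12. Polyadenylated RNA was sequenced from C4-2, a prostate cancer cell line that descends from LNCaP, at passages 10 to 15. Cells received vehicle, GSK126 (an inhibitor of the catalytic activity of the histone methyltransferase EZH2), astemizole (an antihistamine also described as disturbing the contact of EZH2 with its partner EED), or lentivirus carrying a scramble shRNA or 1 of 2 EZH2 shRNAs. No dose, treatment time or selection is stated in the labels. The drug-treated cells share the vehicle library as control and the knockdown has the scramble library, and the table gives 1 column of values per condition. That of the knockdown stands for both hairpin libraries without saying how they were joined. With 1 value per condition no error, test or p-value can be given, and every difference below compares these columns only.

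Most messenger RNAs end in a poly(A) tail. Replication-dependent histone messages instead end just after a short conserved hairpin, the stem-loop, which is bound by SLBP (stem-loop binding protein) and stands in for the tail in processing, translation and decay. Their production is tied to S phase through the coactivator NPAT and the E2F and octamer-binding factors, and the messages are degraded when DNA synthesis stops. Some of the genes also yield polyadenylated transcripts that read past the stem-loop to a downstream poly(A) signal, above all in cells that have left the cycle. A library selected on poly(A) therefore samples the clustered histone genes incompletely, and the values below describe the transcripts that the selection retained.

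The stem-loops are shown because the form of the 3′ end sets which of these transcripts a poly(A) library can hold. A 16-base stem-loop was found in a GENCODE release 29 transcript of 29 members. The other 40, among them all 6 H1 genes, had no match in their annotated transcripts. Annotated transcripts can stop short of the 3′ end, so a missing match says nothing of the message itself. For 8 members, capitals mark the stem-loop and lower case the 5 transcript bases on each side.
HIST1H2AC: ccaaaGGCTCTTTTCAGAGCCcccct
HIST3H2A: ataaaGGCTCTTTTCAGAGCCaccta
HIST1H2BC: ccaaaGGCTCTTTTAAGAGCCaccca
HIST2H2BE: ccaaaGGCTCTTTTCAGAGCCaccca
HIST3H2BB: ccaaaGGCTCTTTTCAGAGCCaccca
HIST1H3H: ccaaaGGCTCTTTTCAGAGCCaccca
HIST1H4H: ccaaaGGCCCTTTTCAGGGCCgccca
HIST1H4I: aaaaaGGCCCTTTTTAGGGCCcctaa
All 7 H4 stem-loops found began GGCCC, and all 22 found in H2A, H2B and H3 genes began GGCTC. The most frequent form, shared by 14 members, is the one printed for HIST1H2AC. In the annotation, HIST1H2AC continued for 1128 bases past its stem-loop, HIST2H2BE for 1729, HIST3H2BB for 1917, HIST1H4H for 1655, HIST1H3H for 769, HIST3H2A for 390, HIST1H4I for 212 and HIST1H2BC for 116.

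The promoters are shown for 4 genes of the back-to-back H2A and H2B pairs to which the comparisons return. RefSeq windows on GRCh38.p14, from 250 bases before to 50 after the start, were matched for 61 of the 69 members. Capitals mark 3 motifs searched on both strands: the octamer ATTTGCAT, CCAAT, and TATAAA. The window of HIST2H2BE is chr1:149886633-149886932, that of HIST1H2BC chr6:26123877-26124176, that of HIST3H2A chr1:228457824-228458123 and that of HIST1H2AM chr6:27893136-27893435, all on the minus strand.
HIST2H2BE: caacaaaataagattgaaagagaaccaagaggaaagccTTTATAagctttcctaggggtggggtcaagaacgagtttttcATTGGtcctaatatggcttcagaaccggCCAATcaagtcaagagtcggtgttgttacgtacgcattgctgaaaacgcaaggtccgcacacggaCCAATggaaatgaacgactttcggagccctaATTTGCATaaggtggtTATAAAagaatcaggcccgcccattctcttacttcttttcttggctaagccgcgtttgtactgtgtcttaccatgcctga
HIST1H2BC: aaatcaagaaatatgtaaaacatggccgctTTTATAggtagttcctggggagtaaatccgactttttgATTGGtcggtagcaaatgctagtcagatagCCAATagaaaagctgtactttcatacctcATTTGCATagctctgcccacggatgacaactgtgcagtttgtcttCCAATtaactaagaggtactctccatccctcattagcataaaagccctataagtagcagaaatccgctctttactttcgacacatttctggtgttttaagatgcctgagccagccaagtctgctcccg
HIST3H2A: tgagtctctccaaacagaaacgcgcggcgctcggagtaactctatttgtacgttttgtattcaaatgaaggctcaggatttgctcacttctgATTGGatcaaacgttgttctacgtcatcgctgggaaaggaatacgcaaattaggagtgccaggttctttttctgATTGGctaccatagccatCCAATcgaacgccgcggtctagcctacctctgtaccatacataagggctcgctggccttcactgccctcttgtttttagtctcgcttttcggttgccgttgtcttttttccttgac
HIST1H2AM: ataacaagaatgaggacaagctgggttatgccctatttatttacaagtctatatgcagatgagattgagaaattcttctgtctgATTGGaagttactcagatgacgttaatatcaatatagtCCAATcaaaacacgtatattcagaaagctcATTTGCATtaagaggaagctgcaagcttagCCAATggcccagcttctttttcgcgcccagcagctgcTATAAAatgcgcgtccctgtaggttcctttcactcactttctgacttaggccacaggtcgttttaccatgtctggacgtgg
The octamer stood in 78.6% of 14 matched H2A and 77.8% of 18 H2B promoters, in 1 of 11 H3 promoters and in none of the 6 H1 or 12 H4 promoters, against 1.77% of all 35116 windows. The 1 H3 window with it, that of HIST1H3D, is the same stretch as that of HIST1H2AD. Windows of back-to-back H2A and H2B genes overlap as well, so the same octamer can be counted in both classes. CCAAT was present in every matched H1, H2A, H2B and H3 window and in 25.0% of those of H4, against 34.6% of all windows, and TATAAA in 65.6% of member windows against 11.5%. These are matches of letters in a fixed window, and bound sites were not measured.

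EZH2 itself was at 26.5 FPKM (fragments scaled to transcript length and library size) in vehicle, 17.5 under GSK126, 9.48 under astemizole, 24.6 in the scramble control and 3.35 after EZH2 knockdown. The 7 prostate markers given here, KLK3 among them, were above 1 FPKM in every column, with summed levels from 3220 to 5768 FPKM. The 8 liver markers summed to 176 FPKM in the GSK126 library, against 20.4 in vehicle and 2.04 to 5.61 in the others, and their part in the GSK126 values was not tested. The FPKM table gives no read totals, so the depth is unknown. In these bulk samples fewer cells of a kind, such as cells in S phase, and less RNA per cell cannot be told apart.

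Of the 69 members, 53 were above 0 in at least 1 column and 16 were listed at 0 in all. A level of 1 FPKM in some column was reached by 40, comprising 3 H1, 10 H2A, 13 H2B, 7 H3 and 7 H4 genes, and 24 reached 1 FPKM in all 5 columns. The 40 include 2 genes annotated as transcribed pseudogenes, HIST2H2BC and HIST2H2BA. Just outside the limit lay HIST1H2AB, with a highest value of 0.902 FPKM, HIST1H1D with 0.796 and HIST1H3I with 0.741. Just inside were HIST1H1B with 1.34, and HIST2H2BA and HIST1H4J with 1.37 each. Only 23 reached 5 FPKM and 11 reached 20 FPKM in any column.

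**Figure D1:**
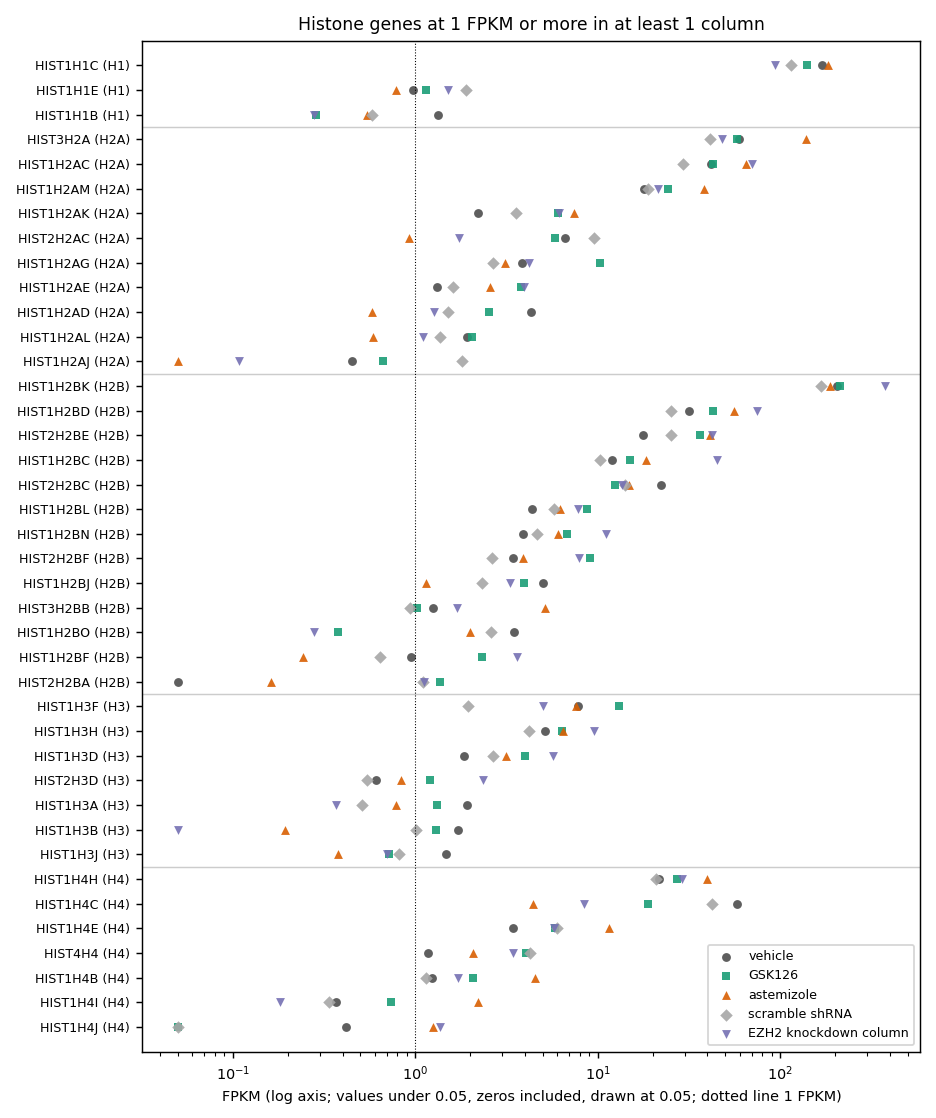
FPKM on a log axis of the 40 histone genes that reached 1 FPKM in some column, by histone class, with 1 point per column and no error. HIST1H2BK and HIST1H1C stand highest, and HIST1H4C spreads from 4.41 FPKM with astemizole to 58.0 FPKM in vehicle.

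The detected histone RNA was concentrated in a few genes. HIST1H2BK, HIST1H1C, HIST3H2A and HIST1H2AC made up 60.7% to 65.8% of the summed histone FPKM in the 5 columns, and the 10 genes with the highest means 83.5% to 88.5%. The sum over all members was 732 FPKM in vehicle, 742 under GSK126, 874 under astemizole, 580 in the scramble control and 918 after EZH2 knockdown. These sums were 0.0919%, 0.108%, 0.113%, 0.0876% and 0.136% of the whole table, in the same order. By class, H2B held 42.4% of the histone sum in vehicle and 64.2% in the knockdown column, while H3 held no more than 3.85% in any column.

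**Figure D2:**
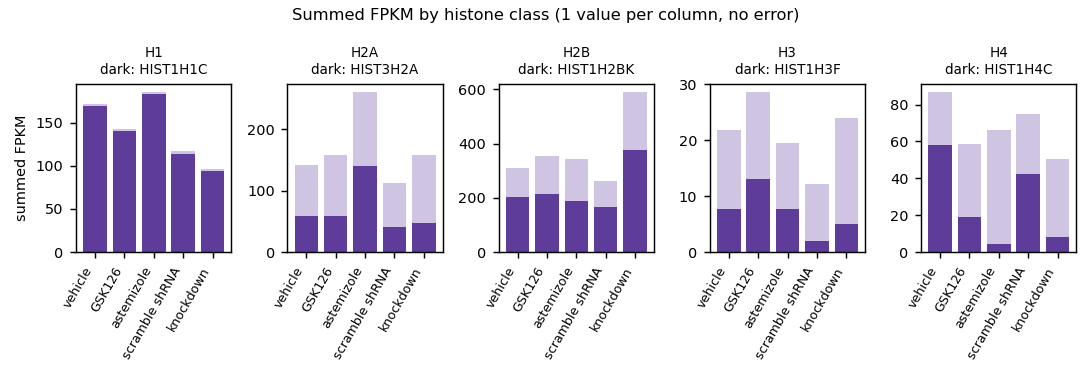
Summed FPKM of each histone class in the 5 columns, 1 value each with no error, with separate vertical axes that start at 0. The dark part is 1 gene per class, which makes up at least 97.7% of H1 and from 6.68% to 66.9% of H4.

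Linker histones of the H1 class bind the DNA between nucleosomes. Their sum was almost all HIST1H1C, which was at 169 FPKM in vehicle, 140 under GSK126, 183 under astemizole, 114 in the scramble control and 93.6 after EZH2 knockdown. Its lowest value was thus in the knockdown column, but scramble shRNA already lay 0.56 below vehicle on the log2 scale, and the knockdown only 0.28 below scramble. HIST1H1E ranged from 0.784 to 1.89 FPKM and HIST1H1B from 0.279 to 1.34 FPKM. None of the 3 H1 genes differed 2-fold from its control in any comparison, on the scale of log2(FPKM + 1) used for all log2 ratios and 2-fold counts here. By plain FPKM, HIST1H1B was 4.70-fold lower with GSK126, 2.47-fold with astemizole and 2.08-fold in the knockdown. Scramble shRNA was also 2.31-fold below vehicle for this gene, all at 1.34 FPKM or less.

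H2A proteins pair with H2B at the outer faces of the nucleosome. HIST3H2A was at 59.5 FPKM in vehicle, 58.1 under GSK126, 140 under astemizole, 41.3 in the scramble control and 48.0 after EZH2 knockdown. Astemizole alone stood apart, with a log2 ratio of 1.22 to vehicle. Further runs of 5 values follow this same order: vehicle, GSK126, astemizole, scramble shRNA and knockdown. HIST1H2AC was at 42.1, 43.0, 65.4, 29.3 and 70.6 FPKM, with a log2 ratio of 1.24 for the knockdown to scramble shRNA. Against vehicle that value was 0.73, under 2-fold. HIST2H2AC went the other way, at 6.62, 5.82, 0.931, 9.58 and 1.74 FPKM. It was low in the astemizole and knockdown columns only, with log2 ratios of -1.98 and -1.95 to their own controls and values under 2-fold with GSK126. HIST1H2AD was lower with astemizole, at 0.582 FPKM against 4.31 in vehicle, but scramble shRNA was also low at 1.52. HIST1H2AM, at 18.04, 24.3, 38.5, 18.8 and 21.3 FPKM, shares 86.3% of the 50-base stretches of its transcript with other members, so reads could be assigned to either copy. HIST1H2AK was at 2.21, 6.10, 7.42, 3.58 and 6.16 FPKM.

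H2B was the class with the most FPKM in every column. HIST1H2BK was the highest member of all, at 204 FPKM in vehicle, 213 under GSK126, 187 under astemizole, 167 in the scramble control and 376 after EZH2 knockdown. The other 4 columns lay within a range of 167 to 213, and the knockdown was 1.17 above scramble and 0.88 above vehicle on the log2 scale. HIST1H2BD followed at 31.7, 43.0, 55.9, 25.2 and 74.3 FPKM. HIST1H2BC was at 12.1, 15.1, 18.4, 10.3 and 44.9 FPKM, and its log2 ratio of 2.02 for the knockdown to scramble shRNA was the largest of the class on the scale of FPKM + 1. Lower in level were HIST1H2BN (3.91, 6.83, 6.04, 4.67 and 11.1 FPKM), HIST2H2BF (3.44, 9.06, 3.90, 2.65 and 7.88 FPKM) and HIST1H2BF (0.951, 2.34, 0.242, 0.639 and 3.63 FPKM). All 5 genes from HIST1H2BD on were 2-fold or more higher in the knockdown column against either control. HIST2H2BE was at 17.7 FPKM in vehicle, 36.6 under GSK126, 41.5 under astemizole, 25.1 in the scramble control and 42.1 after EZH2 knockdown. Vehicle was its lowest value, and against scramble shRNA neither drug reached 2-fold, with log2 ratios of 0.53 and 0.70. HIST1H2BO had the lowest H2B ratios under GSK126 and in the knockdown, at 3.50, 0.379, 1.99, 2.59 and 0.277 FPKM. The pseudogene HIST2H2BC was between 12.4 and 22.3 FPKM, with its highest value in vehicle.

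H3 and H4 form the central tetramer of the nucleosome. All H3 members were under 20 FPKM. HIST1H3F was at 7.77 FPKM in vehicle, 13.1 under GSK126, 7.65 under astemizole, 1.96 in the scramble control and 5.02 after EZH2 knockdown. Its scramble value was low, so the knockdown was 1.03 above scramble and 0.54 below vehicle (log2 ratio -0.54), and its direction turned with the control. HIST1H3H was at 5.14, 6.39, 6.49, 4.20 and 9.50 FPKM and HIST1H3D at 1.84, 4.02, 3.14, 2.69 and 5.73 FPKM, each highest in the knockdown column. HIST1H3B was at 1.71, 1.29, 0.194 and 1.01 FPKM and was listed at 0 in the knockdown column. HIST2H3D, highest in the knockdown column at 2.34 FPKM and between 0.546 and 1.20 elsewhere, shares 80.4% of its 50-base stretches with other members.

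HIST1H4C had the largest log2 ratio of any member in a single comparison, -3.45 with astemizole. It was at 58.0 FPKM in vehicle, 18.9 under GSK126, 4.41 under astemizole, 42.4 in the scramble control and 8.39 after EZH2 knockdown. Both controls were above all 3 treated columns, and by plain FPKM the value was 3.07-fold lower with GSK126, 13.1-fold lower with astemizole and 5.05-fold lower in the knockdown. HIST1H4C transcripts are widely used as a marker of S phase in single-cell data. Its annotated transcript held no stem-loop match and a 20-base stretch with 18 As, a number that 1 other member, HIST1H2BG, reached or passed; the next highest was 15 and the median 11. Whether that stretch was captured in poly(A) selection was not tested.

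The other H4 genes did not share the pattern of HIST1H4C. HIST1H4H was at 21.6 FPKM in vehicle, 27.2 under GSK126, 39.9 under astemizole, 20.9 in the scramble control and 29.01 after EZH2 knockdown. HIST1H4E was at 3.46, 5.86, 11.5, 5.98 and 5.80 FPKM, HIST1H4B at 1.24, 2.08, 4.56, 1.14 and 1.72 FPKM and HIST1H4I at 0.367, 0.734, 2.22, 0.335 and 0.181 FPKM. All 4 had their highest value with astemizole, though HIST1H4E was under 2-fold there against scramble shRNA (0.84 on the log2 scale). HIST4H4 differed 2-fold between the controls, at 1.18 FPKM in vehicle and 4.28 with scramble shRNA, so its GSK126 value of 4.07 FPKM was above vehicle and level with scramble. The H4 sum was 86.6 FPKM in vehicle, 58.8 under GSK126, 66.0 under astemizole, 75.0 in the scramble control and 50.4 after EZH2 knockdown. Without HIST1H4C it was 28.6, 39.9, 61.6, 32.6 and 42.1 FPKM, so that each treated column then lay above its control.

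Counted over the 40 genes, GSK126 against vehicle gave 7 genes 2-fold or more higher and 2 lower, with a median log2 ratio of 0.28. Over all 12937 rows kept by the same limit, 1.05% were higher and 0.951% lower, and their median was -0.04. The members that also passed 2-fold against scramble shRNA were HIST1H2AG and HIST2H2BF, higher, and HIST1H4C and HIST1H2BO, lower. HIST1H2AG was at 3.87 FPKM in vehicle, 10.3 under GSK126, 3.12 under astemizole, 2.68 in the scramble control and 4.23 after EZH2 knockdown, so GSK126 gave its highest value. The other 5 genes counted as higher were HIST1H2AE, HIST1H2AK, HIST2H2BA, HIST2H2BE and HIST4H4, and none of these passed 2-fold against scramble shRNA.

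Astemizole against vehicle gave 8 genes 2-fold or more higher and 5 lower, and the median over the 40 was 0.20. Among all kept rows 3.53% were higher and 5.50% lower, and their median was -0.06. HIST3H2A, HIST3H2BB, HIST1H4B and HIST1H4I were higher against either control. HIST1H4I reached the limit of 1 FPKM in the astemizole column alone, so that column both admitted it and set its direction, and 7 genes remain higher without it. HIST3H2BB was at 1.26, 1.03, 5.15, 0.935 and 1.70 FPKM, highest with astemizole. HIST1H4C and HIST2H2AC were lower against either control. HIST1H2AK, HIST1H2AM, HIST1H4E and HIST2H2BE, higher, and HIST1H2AD, HIST1H2BJ and HIST1H3B, lower, passed against vehicle alone. The ratio of HIST1H2AM to scramble shRNA was 0.997, just under 2-fold. Both drugs were set against the same vehicle library, so their values are not independent of each other.

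The EZH2 knockdown against scramble shRNA gave 11 genes 2-fold or more higher and 5 lower, and the median over the 40 was 0.36. Among all kept rows 1.95% were higher and 5.10% lower, and their median was 0.03. By class, 6 of 13 H2B, 3 of 7 H3, 1 of 10 H2A, 1 of 7 H4 and 0 of 3 H1 genes were higher. Against either control, HIST1H2BC, HIST1H2BD, HIST1H2BF, HIST1H2BN, HIST2H2BF and HIST2H3D were higher and HIST1H2BO, HIST1H3B, HIST1H4C and HIST2H2AC lower. HIST1H2AC, HIST1H2BK, HIST1H3F, HIST1H3H and HIST1H4J were counted as higher against scramble alone, and HIST1H2AJ as lower. HIST1H4J was listed at 0 in the scramble column and at 1.37 FPKM in the knockdown. It shares 81.2% of its 50-base stretches with other members, and HIST1H2AJ 83.7%. HIST1H2AJ reached 1 FPKM in the scramble column alone, which fixes its direction, and 4 genes remain lower without it. The 2 control libraries, which differ by lentivirus against vehicle, serve as a gauge. Scramble shRNA against vehicle gave 2 genes higher, HIST2H2BA and HIST4H4, and 2 lower, HIST1H2AD and HIST1H3F, against 0.170% and 0.850% of all rows, with a median of -0.25 over the 40.

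The members were then grouped by whether an extended transcript is annotated, a grouping chosen after the values were seen and given as a description. A member counted as extended where a GENCODE transcript ran 100 bases or more past the stem-loop, a transcript was spliced, or the RefSeq gene spanned 1000 bases or more. The first rule could not be applied to members without a stem-loop match. HIST1H1C, which has no match, counted as not extended, though polyadenylated transcripts of it are known. An extended form was annotated for 29 members, of which 21 were among the 40, and not for 40, of which 19 were. The median over members of the highest FPKM was 5.15 in the first group and 0.849 in the second. In the knockdown, 8 of the 21 were 2-fold or more higher and 0 lower, against 3 higher and 5 lower of the 19, where 1.95% of all kept rows were higher and 5.10% lower. With astemizole the counts were 5 higher and 1 lower of the 21, and 3 higher and 4 lower of the 19 (all rows 3.53% and 5.50%). With GSK126 they were 5 higher and 0 lower of the 21, and 2 higher and 2 lower of the 19 (all rows 1.05% and 0.951%). HIST1H2BJ, lower with astemizole, was the single member with an annotated extended form counted as 2-fold lower in any of the 3 comparisons with a pseudocount of 1 FPKM. With a pseudocount of 0.1 FPKM, HIST1H2BF and HIST1H3J, which also have an extended form, passed 2-fold lower with astemizole too, at -1.62 and -1.72. Among members at 5 FPKM or more in some column, 7 of 16 extended genes were higher in the knockdown and 0 lower, against 1 higher and 2 lower of 7 others. Annotated extensions come mostly from polyadenylated cDNA, so the annotation and the assay share a source.

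**Figure D3:**
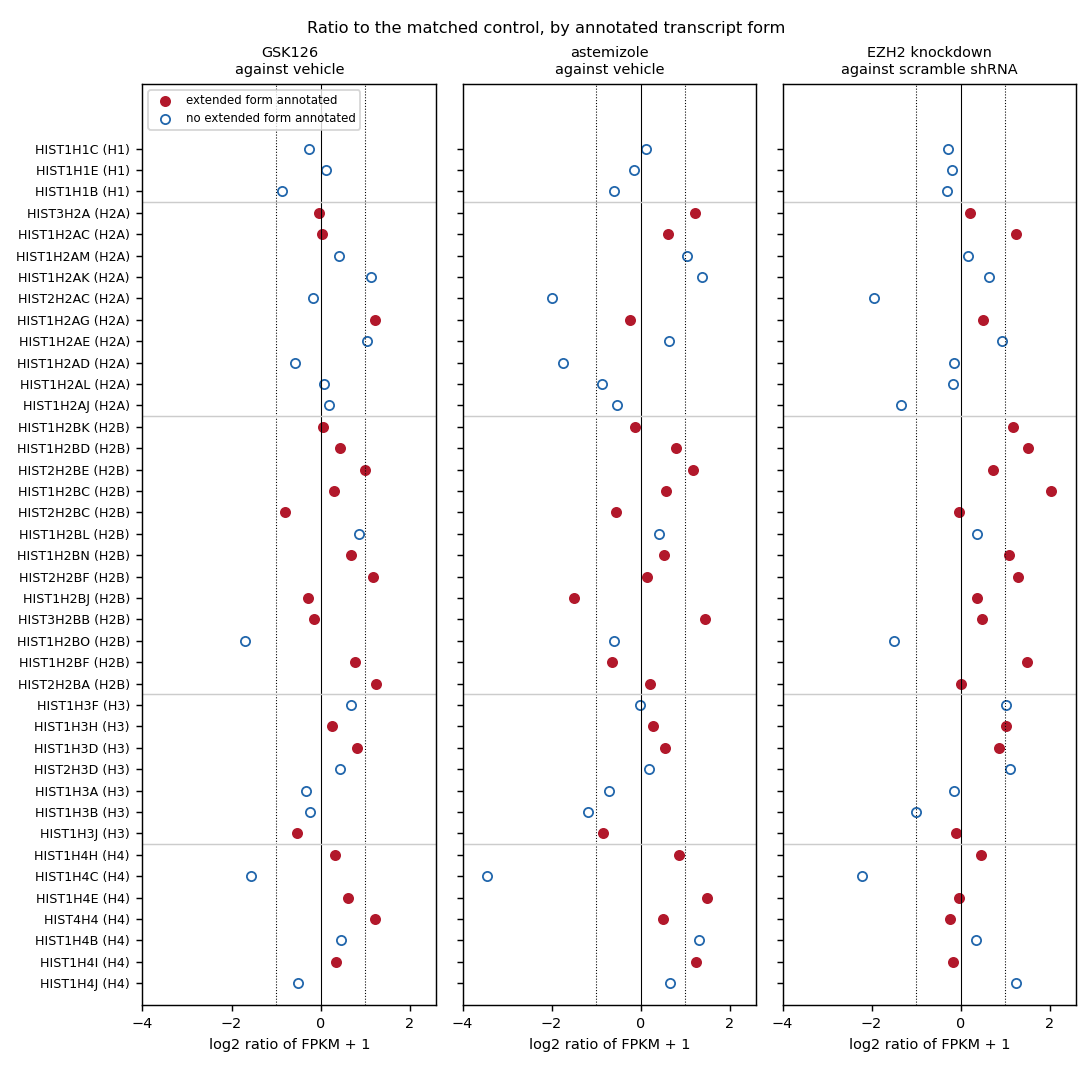
Log2 ratio of FPKM + 1 to the matched control for the 40 histone genes, with dotted lines at 2-fold. Filled points have an annotated extended transcript, and in the knockdown panel none of these 21 lies below the lower line, where 5 open points do.

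H2A and H2B genes often start back to back from 1 shared promoter region, and 10 such pairs had starts 500 bases or less apart, 7 of them with both genes at 1 FPKM or more. HIST2H2BE and HIST2H2AC, whose starts are 236 bases apart in the region printed above, lay furthest apart with astemizole and in the knockdown. With astemizole their log2 ratios were 1.18 and -1.98, and in the knockdown 0.72 and -1.95, in the same order, while between the 2 controls they were 0.48 and 0.47. HIST1H2AM and HIST1H2BO, 240 bases apart, also differed in sign in all 3 comparisons, at 0.41 and -1.71 with GSK126, 1.05 and -0.59 with astemizole and 0.17 and -1.49 in the knockdown. HIST1H2BC and HIST1H2AC, 246 bases apart, were both higher in the knockdown, at 2.02 and 1.24. HIST3H2A and HIST3H2BB, 230 bases apart, were both higher with astemizole, at 1.22 and 1.44. HIST1H2BJ and HIST1H2AG, 248 bases apart, differed in sign with GSK126, at -0.29 and 1.21, and HIST1H2AK and HIST1H2BN, 194 bases apart, were above their controls in all 3 comparisons. HIST1H2AD and HIST1H2BF, 223 bases apart, differed in sign with GSK126, at -0.58 and 0.77, and in the knockdown, at -0.155 and 1.498. With astemizole both were below vehicle, at -1.75 and -0.65. In the pairs of HIST1H2BC and HIST3H2A, whose partners shared a sign in each comparison, both genes have an annotated extended form. HIST2H2BE and HIST1H2BF have one, but not their partners. The pair of HIST2H2BE differed in sign in all 3 comparisons, that of HIST1H2BF with GSK126 and in the knockdown only. HIST1H2BJ and HIST1H2AG both have one yet differed with GSK126, and HIST1H2AK, which moved with HIST1H2BN, has none. HIST1H2AM and HIST1H2BO have none. An annotated extended form thus did not fully separate the pairs that moved together from those that did not.

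**Figure D4:**
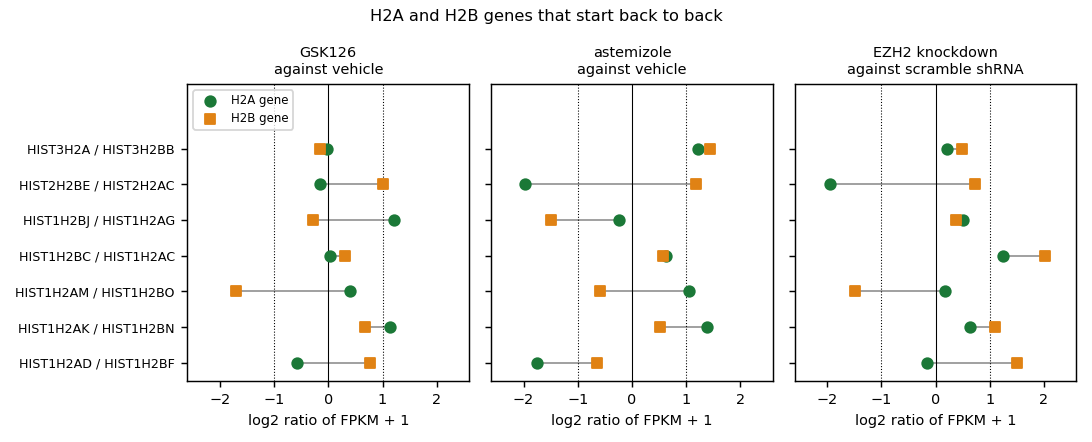
Log2 ratio of FPKM + 1 to the matched control for the 7 pairs of H2A and H2B genes that start back to back with both at 1 FPKM or more. The line joins the partners, and the longest lines are those of HIST2H2BE and HIST2H2AC with astemizole and in the knockdown.

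Gene models also overlap. The RefSeq model of HIST1H2BK overlaps HIST1H4I on the opposite strand, and no source used here says whether the authors counted by strand. That of HIST1H3D overlaps HIST1H2AD on the same strand. Both have the same annotated start, so counting by strand could not part their values. HIST1H2BK and HIST1H4I did not move together, with log2 ratios of -0.13 and 1.23 for astemizole and 1.17 and -0.18 for the knockdown. Nor did the listed values of HIST1H2AD and HIST1H3D, at -1.75 and 0.54 for astemizole and -0.16 and 0.87 for the knockdown.

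The genes of DNA replication lay almost all below their controls. Of 25 S phase genes, 9 were 2-fold or more lower with GSK126, 24 with astemizole and 24 in the knockdown, and none was higher, with medians of -0.92, -1.68 and -2.48. Among all kept rows 0.951%, 5.50% and 5.10% were lower, in the same order. RRM2, a subunit of ribonucleotide reductase, was at 90.8 FPKM in vehicle, 41.1 under GSK126, 11.3 under astemizole, 80.9 in the scramble control and 4.30 after EZH2 knockdown. HIST1H4C, HIST2H2AC and HIST1H3B were the members 2-fold lower in both the astemizole and the knockdown column. Among 25 chaperone and deposition genes, 1, 13 and 9 were lower and none higher, beside the same all-row shares. ASF1B, which hands H3 and H4 to the replication fork, was at 63.9, 30.4, 11.4, 66.5 and 3.01 FPKM. Of 6 transcription factors of histone genes, only E2F1 passed 2-fold, lower in all 3 comparisons with the matched controls (43.5, 20.2, 12.6, 40.2 and 3.51 FPKM). Its log2 ratio with GSK126 was -1.07, close to the 2-fold limit. NPAT was between 4.05 and 4.69 FPKM in all 5 columns.

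Of 18 genes of histone 3′ end processing, 0 were lower with GSK126, 3 with astemizole and 1 in the knockdown, and none was higher. Among all kept rows 5.50% were lower with astemizole and 5.10% in the knockdown. The 1 in the knockdown was SLBP, at 85.5 FPKM in vehicle, 45.9 under GSK126, 47.3 under astemizole, 81.1 in the scramble control and 29.4 after EZH2 knockdown, with log2 ratios of -0.88, -0.84 and -1.44. Of 8 decay genes, 1 was lower with astemizole, where 5.50% of all kept rows were, and none passed 2-fold otherwise. The part of SLBP in the values of the extended transcripts was not tested.

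Most replication-independent variant histones are not confined to S phase, and they come mostly from ordinary polyadenylated messages. Of 11 at 1 FPKM or more, none was higher in any comparison, and 0, 4 and 2 were lower with GSK126, astemizole and the knockdown (all rows 0.951%, 5.50% and 5.10%). H2AFX, the H2A variant phosphorylated at DNA breaks, whose message can also end in a stem-loop, was at 273, 137, 58.2, 182 and 29.5 FPKM, and CENPA, the H3 variant of centromeres, at 30.6, 15.1, 4.18, 16.6 and 1.34 FPKM. H2AFZ was at 1458, 739, 541, 830 and 546 FPKM, well above any clustered gene, and H1F0 at 71.1, 63.2, 61.2, 59.2 and 33.6 FPKM.

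Among other RNAs that lack a usual poly(A) tail, several were higher in the knockdown column, fewer of them against vehicle. Of 10 at 1 FPKM or more, 7 were 2-fold or more higher and 0 lower against scramble shRNA (median 1.29, all rows 1.95% and 5.10%). The rows behind these shares leave out short non-coding RNA genes, the SCARNAs among them, so they are not a matched background for this list. Against vehicle, 2 of the 10 were higher, RMRP and RPPH1, and 1 lower, SCARNA5 (median 0.66, all rows 1.96% and 7.25%). In the drug comparisons GSK126 gave 0 higher and 2 lower (all rows 1.05% and 0.951%) and astemizole 1 higher and 3 lower (all rows 3.53% and 5.50%). Of the 7, SCARNA2, SCARNA5 and SCARNA7 were listed at 0 in the scramble column and reached no more than 2.97 FPKM in the knockdown. Named after their values were seen, RMRP was at 58.7, 57.4, 71.5, 91.7 and 262 FPKM, RPPH1 at 20.5, 26.1, 28.2, 31.6 and 116 FPKM and MALAT1 at 201, 184, 485, 158 and 318 FPKM. These are the RNAs of the RNase MRP and RNase P enzymes and a nuclear long non-coding RNA. Of the 40 histone genes at 1 FPKM or more, 11 were 2-fold or more higher in the knockdown against scramble shRNA and 5 lower, beside the same all-row shares. The part that the efficiency of poly(A) selection has in the knockdown values was not tested.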

How the data were processed

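The table holds FPKM values made by the authors, per the labels. TopHat2, Cuffdiff and the genome build hg19 are named per the submitters' processing notes, without versions; the annotation, normalization and strand setting are stated in no source used here. Its 5 columns were matched to the 6 labelled libraries by name, the 2 EZH2 hairpins sharing 1 column. Ratios were log2 of (FPKM + 1) over (FPKM + 1), which understates changes of low genes, and a 2-fold difference was counted. The background is every row reaching 1 FPKM in some column, without 27 names turned into dates and 1672 short non-coding RNA genes. With 1 column of values per condition there is no replicate value, so no test was run, and a value of 0 can be a failed estimate. The arithmetic of the ratios and 2-fold calls was checked with known changes put into well expressed rows of the vehicle column. Those changes were large enough to pass 2-fold by construction, so the check does not cover calls of members at low FPKM. The searches for stem-loops, promoter motifs and pairs were not checked in this way. Stem-loops, transcript lengths and shared 50-base stretches come from GENCODE release 29; promoters, gene spans and pair distances from RefSeq on GRCh38.p14, a later build than the authors', matched by gene identifier. Every member at 1 FPKM or more could be named, with up to 4 genes of largest ratio per related list plus SLBP, NPAT, H1F0 and H2AFZ; exceptions are marked. The members and lists were chosen with earlier results of these data known. Of the prostate markers chosen, 1 is not reported here. Alternatives were a pseudocount of 0.1 FPKM, columns rescaled to a common sum, the other control column, no filter, a filter on the mean, and leaving out zeros and near-identical genes. The near-identical genes were a fixed list of HIST2 names, which took only HIST2H3D from the members at 1 FPKM or more. HIST1H2AM, HIST1H2AJ, HIST1H4J and HIST2H2BA, which also share over 50% of their 50-base stretches with other members, were not on it. Python 3.11.15, pandas 2.3.3 and Biopython 1.88 were used.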

Additional observations from a re-analysis of the deposited data

How the results depend on the processing

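The median log2 ratio of the 40 histone genes kept its sign in the 4 comparisons under the settings tried, except that it was 0 over all 69 members without a filter, where 16 are listed at 0 throughout. Of the counts and medians recomputed under the alternatives, 60 stayed near the reported value and 9 moved. Against the other control column, GSK126 gave 4 genes higher and astemizole 3 lower. With a pseudocount of 0.1 FPKM, the genes lower were 4 with GSK126, 11 with astemizole and 6 for scramble shRNA against vehicle. With a mean of 1 FPKM or more, the knockdown gave 3 lower and scramble against vehicle 1 higher. Without zeros and the listed near-identical genes, scramble against vehicle gave 1 higher, and after rescaling the columns to a common sum, 1 lower. The cause was not tested. By gene, the other control reversed HIST4H4 with GSK126 (-0.058) and HIST1H3F in the knockdown (-0.54), and ended the 2-fold call of 16 members' values. Rescaling shifted the median of all rows by 0.19 for GSK126, 0.04 for astemizole, -0.03 for the knockdown and 0.23 for scramble against vehicle. Depth is unknown, so values near 1 FPKM carry an unstated counting error. No paired analysis was possible because the table gives 1 column of values per condition, the 2 knockdown libraries included, and the columns carry no replicate number. Added after seeing the data, vehicle as control for the RNAs without a usual tail gave 2 higher and 1 lower in the knockdown, against 7 and 0.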
